A study of Mus musculus with 2 samples.

Results

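The cells described here are CD8 T cells without detected proliferation markers, taken from the spleen of mice given the calcineurin inhibitor tacrolimus. They were chosen by 4 values in each cell: at least 1 unique molecular identifier (UMI, a tag that counts 1 captured mRNA molecule) of Cd8b1, and none of Cd4, Mki67 or Top2a. Of 1688 cells in the tacrolimus library, 1475 had 200 or more of the 2000 deposited genes above 0. Of these, 1001 were CD8 cells by the Cd8b1 and Cd4 values, and 158 of them (15.8% of the CD8 cells, 10.7% of the kept cells) had no UMI of Mki67 or Top2a. The other 843 CD8 cells, with a UMI of Mki67 or Top2a, are called dividing below, and 83 cells with Cd4 but no Cd8b1, Mki67 or Top2a are the non-dividing CD4 cells. "Non-dividing" means only that these transcripts were not detected.

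Spleen and bone marrow cells of wild-type C57BL/6 mice had been injected into lethally irradiated wild-type BALB/C recipients, which received tacrolimus from day 0 to day 6. Cells were isolated from the recipients' spleens on day 6 and the labels call them donor T cells. All 3 groups of cells came from this 1 droplet library, and the labels do not say how many mice it represents. A second library, from recipients given an antibody to IL-2, was deposited as batch-integrated values and gives no comparison here. With 1 library there is no replicate error: cells are not replicates, no test was made, and every interval below is a 95% interval for counting error only.

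CD8 T cells recognise peptides on MHC class I, divide on activation and become effector cells that kill through granzymes and perforin. In a recipient of mismatched marrow and spleen, donor T cells meet the recipient's tissue antigens, the setting of graft-versus-host disease. Tacrolimus blocks calcineurin and so the activation of NFAT, the transcription factor through which the T-cell receptor turns on Il2 and other cytokine genes. Effector CD8 cells that stop dividing either become short-lived terminal effectors, marked by KLRG1, or keep the IL-7 receptor (Il7r) and pass into memory.

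The library was deep but unequal between the groups. The 158 non-dividing CD8 cells held a median of 8727.5 UMIs (range 3468 to 31862) and 275 deposited genes, the 843 dividing CD8 cells 15238 UMIs and 443 genes, and the 83 non-dividing CD4 cells 8680 UMIs and 264 genes. Levels are therefore given as UMIs per 10000 UMIs of the summed cells, and shares of cells with a UMI after each cell was thinned at random to 5000 UMIs, which left out 7 non-dividing and 13 dividing CD8 cells with fewer. A gene is called higher or lower when its level differed at least 1.5-fold and at least 5% of the thinned cells of either group had a UMI. Depth also bears on the choice of members: of 830 dividing cells thinned to 5000 UMIs, 81 (9.76%, exact binomial interval 7.83% to 12%) lost every UMI of Mki67 and Top2a.

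The cells carried the CD8 label's transcripts well above its threshold. Cd8b1, the CD8 beta chain (mm10 chromosome 6, 71322788 to 71337494), was at 15.0 UMIs per 10000 (14.4 to 15.6) in the non-dividing and 11.3 in the dividing CD8 cells. The median non-dividing cell held 13.5 UMIs of it, and 3 cells passed on 1 UMI. Cd8a, the alpha chain (chromosome 6, 71373427 to 71379173), which the choice did not use, had a UMI in 129 of the 158 cells (81.6%) and a level of 2.42 against 2.56 in dividing cells. Cd8a had no UMI in the 83 CD4 cells, which were chosen without Cd8b1 but not by Cd8a. Of the 1688 cells, 94 had UMIs of both Cd4 and Cd8b1 and belong to neither group, and doublets were not called. A further set of 42 cells (median 9651 UMIs), used below as a background, lacked Cd8a, Cd8b1 and Cd4 and carried over 20 UMIs per 10000 of B-cell, myeloid, erythroid or MHC class II genes. None of the 10 general T-cell markers on the fixed list (Cd3d, Cd3e, Trac and others) was analysed here.

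**Figure D1:**
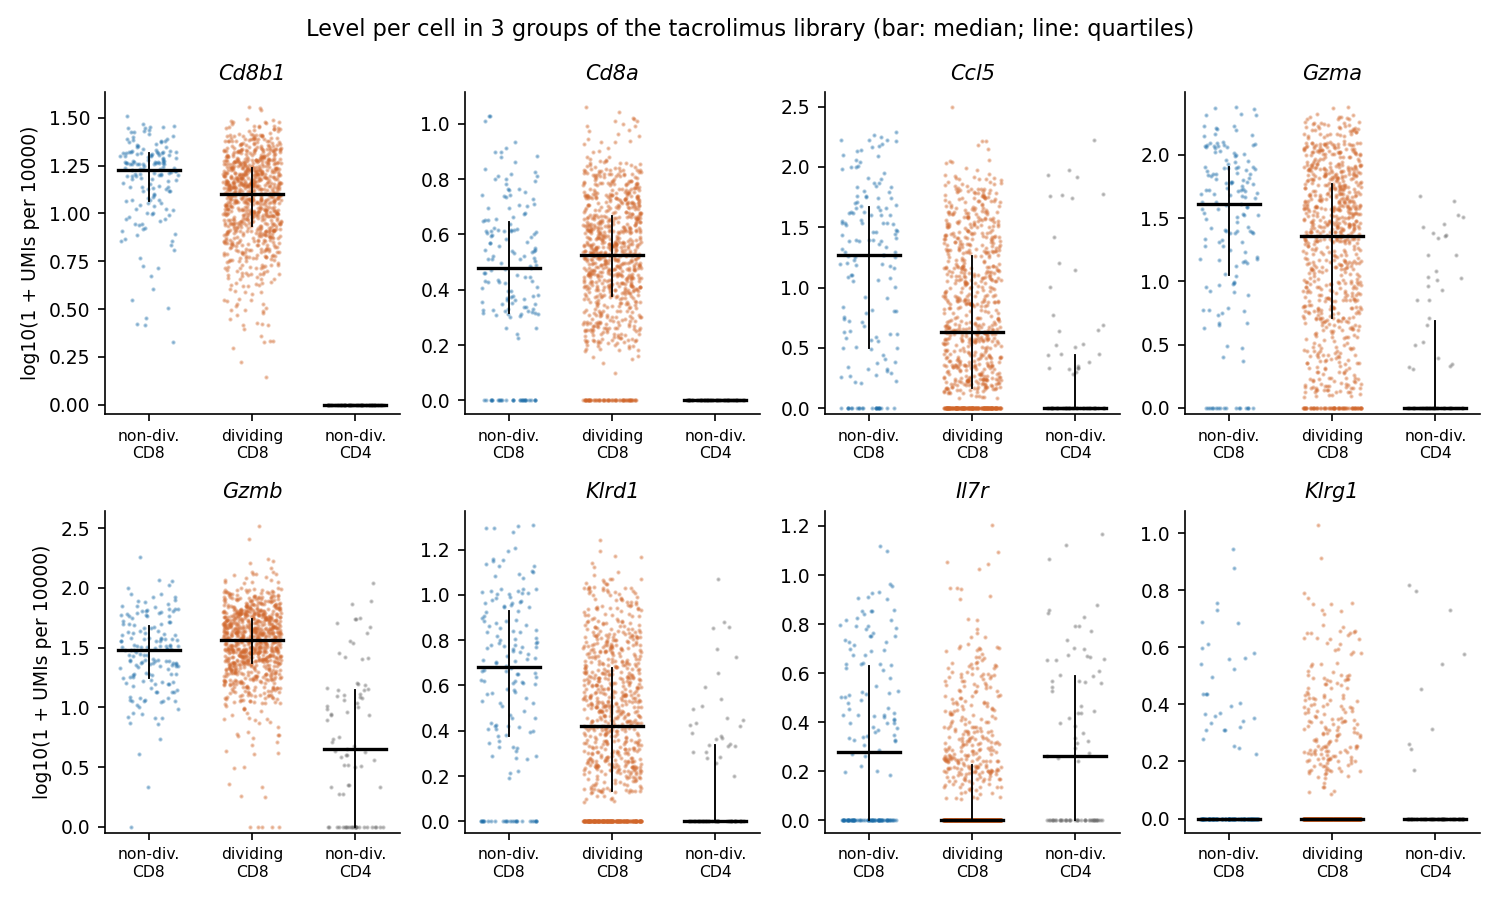
Level of 8 genes in each non-dividing CD8 (158), dividing CD8 (843) and non-dividing CD4 (83) cell, as log10 of 1 plus UMIs per 10000; points are cells, the thick bar is the median and the thin line the quartiles. Cd8b1 (by the choice) and Cd8a are at 0 in the CD4 cells, Ccl5, Gzma and Klrd1 have higher medians in non-dividing than in dividing CD8 cells, and Gzmb does not.

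Absence of Mki67 and Top2a went with low levels of most other cell-cycle genes, but not in every cell. All 37 genes of the DNA replication list, all 70 of the G2 and M phase list and all 41 replication-dependent histone genes at the minimum share were lower in the non-dividing cells, with median log2 ratios of -1.5, -3.17 and -2.65. Over the 782 genes at the minimum share 14.3% were higher and 46.7% lower (17.8% and 34.1% without the cycle and histone lists and the genes of the choice), and since Mki67 and Top2a chose the groups, nothing is read from these counts. A gene can also pass through 1 group alone: 24 of the 112 higher genes reached the minimum share in the non-dividing cells only, and 122 of the 365 lower ones in the dividing cells only. Cdk1, the kinase that drives entry into mitosis, was at 0.11 UMIs per 10000 against 2.41, Ccna2 (cyclin A) at 0.48 against 3.76, Mcm3 of the replication helicase at 0.80 against 1.90 and Pcna, the replication clamp, at 1.06 against 2.30. Among the lowest genes outside the lists were Sgol2a, Pif1, Depdc1b, Kif14, Aspm, Casc5, C330027C09Rik, Kifc1 and Prr11. Sgol2a, which guards cohesion at centromeres, had 1 UMI in 158 cells against 717 in the dividing cells, and Kifc1, a mitotic kinesin, had 7 against 1099.

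Per cell, the summed S and G2/M genes ranged from 9.29 to 281 UMIs per 10000 among the non-dividing cells, with a median of 36.4 against 216 in the dividing cells. Of the 158 cells, 128 (81.0%) lay below 92.2, the 5th percentile of dividing cells, and 30 lay at or above it. No cell was without any S or G2/M UMI. The 30 cells with higher sums differed from the 128 in several of the genes described below: Ccl5 was at 12.6 (11.3 to 13.9) against 36.2 UMIs per 10000 (35.1 to 37.3), Il7r at 0.71 against 1.95, and Cd7 at 0.94 against 3.19. Other genes were higher in the 30 cells: the chemokine Ccl4 was at 9.04 (7.99 to 10.2) against 2.49 (2.22 to 2.79), Crtam at 0.67 against 0.19, Xcl1, a chemokine that attracts dendritic cells, at 3.07 against 0, and Ccl1 at 3.21 against 0.05. Xcl1 and Ccl1 did not reach the minimum share: under 5% of the thinned non-dividing cells had a UMI of either gene, so their levels rest on few cells. Gzma (49.9 against 53.0) and Gzmb (37.8 against 36.0) were close. With the 128 cells alone, 107 of the 112 higher and 363 of the 365 lower calls against dividing cells were kept.

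**Figure D2:**
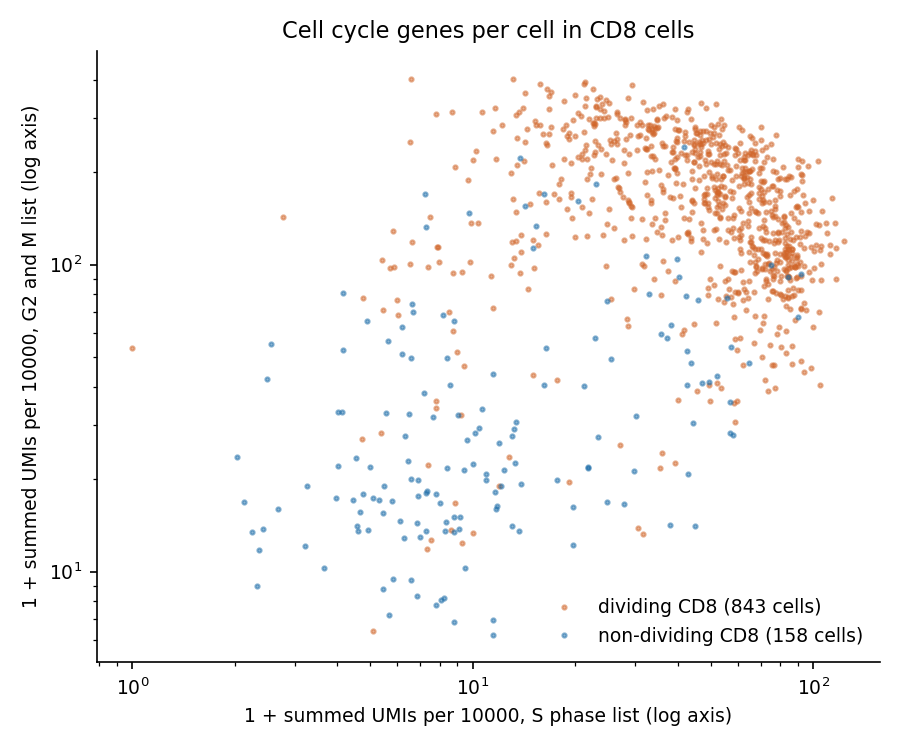
Summed UMIs per 10000 of the S phase list (horizontal) and of the G2 and M list (vertical), each plus 1 on a log axis, in 158 non-dividing and 843 dividing CD8 cells; each point is a cell. Most non-dividing cells lie at the lower left, and 30 of them reach or pass the 5th percentile of the dividing cells.

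The non-dividing cells carried the granule genes of effector cells, some higher than in dividing cells and others within 1.5-fold of them. Ccl5, a chemokine that draws T cells and monocytes (chromosome 11, 83525778 to 83530518), was at 31.5 UMIs per 10000 (30.6 to 32.4) against 10.5 (10.3 to 10.7), a ratio of 3.0. Its middle 50% of non-dividing cells ran from 2.16 to 45.5 with a median of 17.5, and of dividing cells from 0.48 to 17.3 with a median of 3.28, so the groups overlapped widely. Gzma, the tryptase granzyme A (chromosome 13, 113093825 to 113100981), was at 52.3 against 33.5 (1.56-fold), Gzmk at 4.85 against 3.03 (1.6-fold) and Gzmm at 0.22 against 0.12 (1.85-fold). Gzmb, granzyme B, which triggers caspases in the target cell, was at 36.4 against 42.4 and was seen in all 151 thinned cells; a floor of 3 cells allows a share without it of up to 1.99%. Perforin (Prf1, 2.06 against 2.43) and the granule protein Nkg7 (24.2 against 19.9) were also within 1.5-fold. Serpinb9, the granzyme B inhibitor that protects the killer cell, was lower at 1.99 against 3.68, as was Gzmc at 0.18 against 0.48. Of 11 granule genes at the minimum share, 4 were higher, 2 lower and 5 neither, with a median log2 ratio of 0.28 against -0.51 over all 782 genes. Of those 782 genes 14.3% were higher and 46.7% lower. Restricted to 8000 to 16000 UMIs per cell, where the groups' depths are closer, 1 of 11 was higher, Serpinb9b, a paralog of Serpinb9, and Gzma, Gzmk and Gzmm were within 1.5-fold. At those depths 12.8% of 775 genes were higher.

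Among NK-type receptors, which tune killing by effector CD8 cells, 5 of 8 genes were higher and none lower (median log2 ratio 0.73). Of the 5, 2 reached the minimum share in the non-dividing cells only. Of all 782 genes 14.3% were higher and 46.7% lower. At 8000 to 16000 UMIs 2 of 7 NK-type genes were higher, Klrd1 and Klrb1c, and 1 lower. At those depths 12.8% of 775 genes were higher and 35.4% lower. Without the cells over 20 UMIs per 10000 of the B, myeloid or MHC class II lists, 4 of 7 were higher and 1, Fcer1g, was lower. Of 778 genes 12.7% were then higher and 49.2% lower. Klrd1 (CD94), the partner chain of NKG2 receptors, was at 4.59 against 2.12 UMIs per 10000, and Klrk1, the activating receptor NKG2D, at 2.20 against 1.44. Klrg1, an inhibitory receptor of terminal effectors (chromosome 6, 122270596 to 122282882), was sparse. It was at 0.52 UMIs per 10000 (0.41 to 0.65) against 0.29 (0.26 to 0.32), and 17.2% of thinned cells (11.6% to 24.2%) had a UMI against 11.3%. None of 30 thinned cells of other lineages had one, which by the same floor allows a share of cells with a UMI of up to 10%. Klre1 was at 0.18 against 0.05. Tyrobp, an adaptor shared with NK and myeloid cells, was at 0.45 against 0.07, but 76.1% of its UMIs came from 1 cell. The inhibitory partner Klrc1 (NKG2A, 3.82 against 3.36) and Cd160 (2.26 against 1.59) were within 1.5-fold. Of 9 terminal effector genes 7 were higher, 1 of them at the minimum share in the non-dividing cells only. At 8000 to 16000 UMIs 2 of 10 were higher, Cd7 and Itgax. Over all depths the 7 include Ly6c2 (14.4 against 9.48), Id2, an inhibitor of E proteins (6.96 against 4.58), and the integrin chains Itgax (1.31 against 0.49) and Itgam (0.11 against 0.06).

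Genes of naive and memory cells were present in the same population. Il7r, the IL-7 receptor alpha chain that sustains resting T cells (chromosome 15, 9505788 to 9530176), was at 1.70 UMIs per 10000 (1.49 to 1.92) against 0.49 (0.46 to 0.53), and had a UMI in 43.7% of thinned cells (35.7% to 52.0%) against 19.3% and in none of 30 thinned cells of other lineages. Ltb, lymphotoxin beta (chromosome 17, 35194439 to 35196320), was at 2.95 against 1.03. Cd7, a surface protein of T and NK cells (chromosome 11, 121036747 to 121039418), was at 2.74 against 0.72, a ratio of 3.82, in 64.9% against 25.3% of thinned cells. Crtam, an adhesion molecule of activated CD8 cells, was at 0.28 against 0.17, but at 0.19, within 1.5-fold, in the 128 cells with low cycle sums. Tcf7, which encodes the TCF1 factor of naive and stem-like cells, had 9 UMIs in the 158 cells and stayed under the minimum share. Of 7 naive, memory and stem-like genes at that share 4 were higher and none lower, with a median log2 ratio of 0.73. Of the 4, 1 reached that share in the non-dividing cells only. Of all 782 genes 14.3% were higher and 46.7% lower. With the 128 low-sum cells alone 2 of 6 were higher, Il7r and Ltb, against 15.6% of 783 genes, and the list's median was 0.17.

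Of 9 homing receptor and integrin genes, which guide migration, 8 were higher and none lower (median log2 ratio 0.88). Of the 8, 2 reached the minimum share in the non-dividing cells only. Of all 782 genes 14.3% were higher and 46.7% lower, which is the background for the other lists in this paragraph too. At 8000 to 16000 UMIs 3 of 9 were higher (Itgax, Cxcr6 and Itga1) against 12.8% of 775 genes. Cxcr6, a receptor of tissue-resident T cells, was at 3.07 against 1.45 UMIs per 10000, Ccr2 at 1.74 against 1.02 (under 1.5-fold in each bin of depth), and the collagen-binding integrin chain Itga1 at 0.28 against 0.15. Of 7 cytokine receptor and SOCS genes 3 were higher (Il7r, the kinase gene Pim2 at 0.61 against 0.31, and Socs1 at 0.34 against 0.20) and 1 was lower: Il2ra, the high-affinity IL-2 receptor chain, at 0.41 against 0.72. Among survival and cell death genes 4 of 12 were higher, including the BCL2 antagonist Bcl2l11 (BIM, 0.59 against 0.31) and the antiproliferative Btg2 (0.96 against 0.54), and 2 were lower, the cyclin-dependent kinase inhibitor genes Cdkn2c (0.04 against 0.48) and Cdkn2d (0.65 against 1.46). Of 5 chemokine and cytokine genes Ccl5, Ccl4 and Ltb were higher and none was lower; without the 30 cells of higher cycle sums Ccl5 and Ltb were higher and Ifng lower.

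NFAT and T-cell receptor response genes, the list closest to the drug's target, hardly separated the groups. Of 12 at the minimum share, the chemokine Ccl4 was higher (3.80 against 1.88 UMIs per 10000), Tnfrsf4 (OX40) was lower (0.19 against 0.33) and 10 were neither, among them Nr4a2 (0.38 against 0.43) and Ifng (0.40 against 0.53). Of all 782 genes at that share 14.3% were higher and 46.7% lower. Of the Ccl4 UMIs 268 of 564 lay in the 30 cells with higher cycle sums, and the 128 others were at 2.49, within 1.5-fold of the dividing cells, so that none of the 12 was higher and 3 were lower with those 128 alone. With those 128 cells 15.6% of 783 genes were higher and 50.6% lower. Exhaustion genes were similarly flat: of 10 inhibitory receptor and exhaustion genes Maf and Entpd1 were higher, Rgs16 was lower, and Pdcd1 (PD-1, 2.37 against 2.52), Havcr2 (TIM-3, 0.90 against 1.04), Lag3 (2.67 against 2.04) and Tox (0.26 against 0.39) were neither. Of 34 MYC, mTORC1 and nucleotide synthesis genes, which serve growth, 23 were lower, 11 neither and none higher (median log2 ratio -0.82), where 46.7% of all 782 genes were lower. At 8000 to 16000 UMIs 5 of 32 were lower and 2 higher, against 35.4% of 775 genes lower. Over all depths the 23 include Ldha, lactate dehydrogenase (10.2 against 15.8), nucleolin (Ncl, 2.86 against 5.13), Odc1 (0.53 against 0.94) and the amino acid transporter Slc7a5 (0.21 against 0.43). Of 14 immediate early and heat shock genes 4 were higher and 4 lower, and the lower ones include the chaperone genes Hsp90ab1 (22.2 against 34.1) and Hspd1 (1.66 against 3.05). At 8000 to 16000 UMIs none of 14 was higher and 2 were lower, Hsp90aa1 and Jun. Hsp90ab1 and Hspd1 were then within 1.5-fold, and Jun had been among the 4 higher ones over all depths.

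These directions depend on what the levels are set against. The median log2 ratio over the 782 genes was -0.51, and 23.5% of the called genes were higher. With median-of-ratios scaling, which sets that median to 0, 209 genes were higher and 217 lower, so that 49.1% of the called genes were higher. Under it the NFAT list's median changed from -0.23 to 0.28, that of the immediate early and heat shock list from -0.08 to 0.42 and the log2 ratio of Gzmb from -0.22 to 0.29, while the growth list stayed below 0 at -0.31 and Il2ra at -0.30. The -0.51 includes the cycle and histone genes. Without those lists and the genes of the choice the unscaled median was -0.29, nearer to 0, and scaling to that value was not made.

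**Figure D3:**
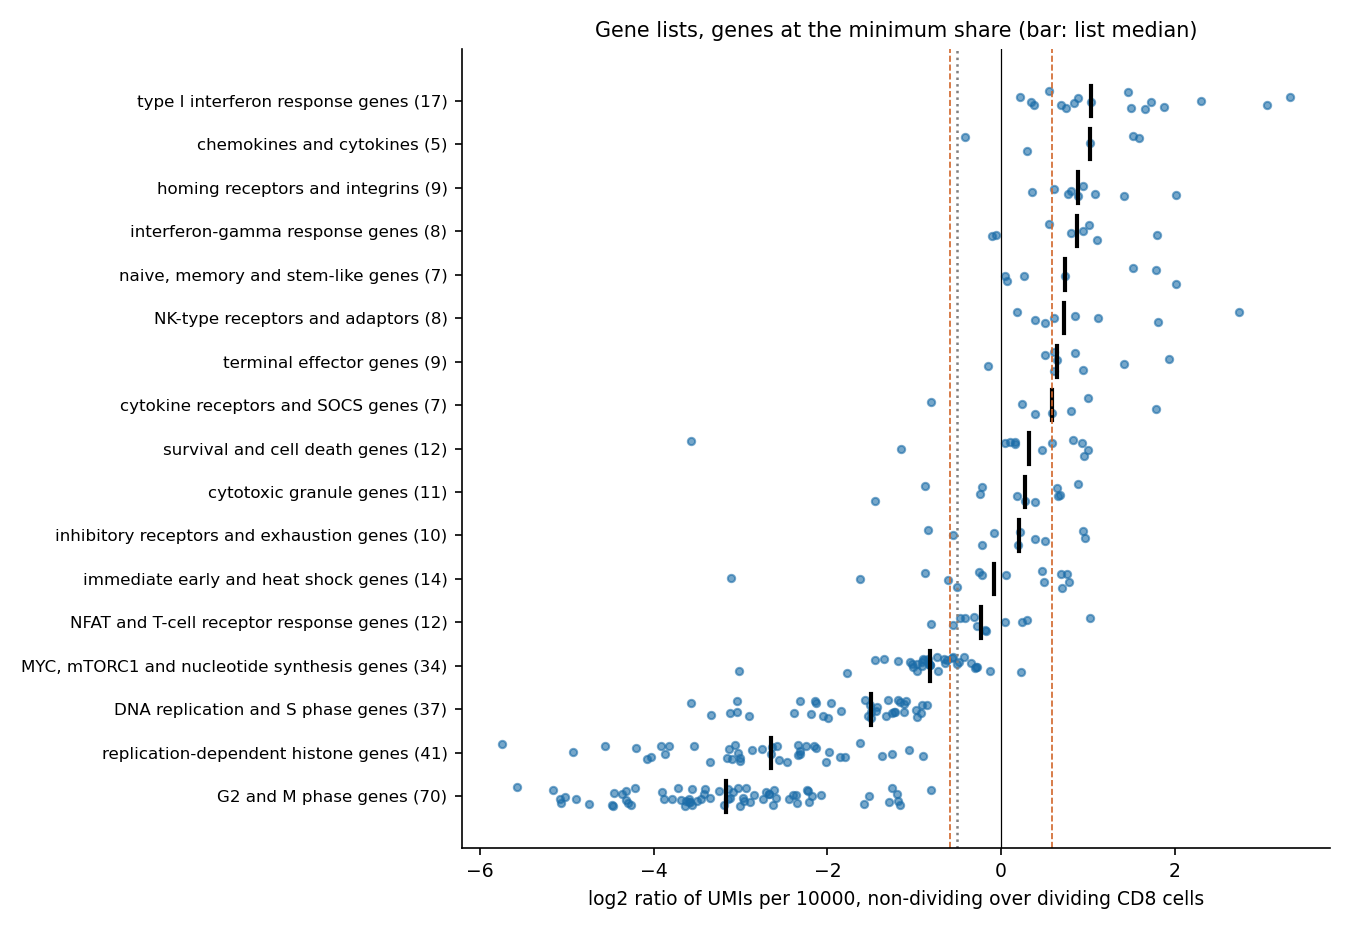
Log2 ratio of UMIs per 10000, non-dividing over dividing CD8 cells, for each gene at the minimum share in 17 gene lists; each point is a gene, the thick bar is the list's median, the dashed lines mark 1.5-fold and the dotted line the median of all 782 genes (-0.51). The 3 cell-cycle and histone lists lie to the left of both dashed lines, and the type I interferon list has the highest median (1.03).

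Type I interferon response genes had the highest median of the 17 lists, followed closely by the 5 chemokine and cytokine genes (1.03 and 1.02). These genes are switched on through the receptor for interferons alpha and beta and the factor ISGF3, which binds a repeat of GAAA motifs in their promoters. Of 17 at the minimum share 13 were higher and none lower, with a median log2 ratio of 1.03, and 4 of the 13 reached that share in the non-dividing cells only. Of all 782 genes 14.3% were higher and 46.7% lower. At 8000 to 16000 UMIs 13 of 17 interferon genes were again higher, 10 of them the same genes, with a median of 0.82. At those depths 12.8% of 775 genes were higher and 35.4% lower. Rtp4, a receptor transporter (chromosome 16, 23520291 to 23614222), was at 0.75 UMIs per 10000 (0.61 to 0.90) against 0.15 (0.13 to 0.17), a ratio of 4.94. Slfn1, a Schlafen gene linked to T-cell quiescence, was at 1.14 against 0.31, Isg15, the ubiquitin-like modifier, at 1.0 against 0.36, Irf7 at 0.85 against 0.42, Zbp1 at 1.26 against 0.68 and Bst2 (tetherin) at 1.64 against 1.02. Without the cells over 20 UMIs per 10000 of the B, myeloid or MHC class II lists, 12 of 17 were higher and Bst2 was within 1.5-fold. Ifit1, which binds foreign RNA, had the highest ratio among genes at the minimum share outside the cycle lists (10.05, interval 6.36 to 15.9) on 42 UMIs, of which 42.9% came from 1 cell, and Slfn5 (8.38, interval 3.79 to 18.3) rested on 14 UMIs. Interferon-gamma response genes included 5 of 8 that were higher, 1 of them at the minimum share in the non-dividing cells only. At 8000 to 16000 UMIs 3 of 8 were higher. Over all depths the 5 include the GTPase genes Igtp (0.59 against 0.29), Gbp2 (0.37 against 0.19) and Tgtp2 (0.26 against 0.07).

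Summed over 26 measured type I interferon genes, the non-dividing CD8 cells reached 34.2 UMIs per 10000 (33.3 to 35.2), the dividing CD8 cells 20.4, the non-dividing CD4 cells 63.3 and the 42 cells of other lineages 72.6. The non-dividing CD8 cells were therefore above the dividing CD8 cells and below both other groups. Their median cell was at 26.7 and the highest at 161, and the 5 highest cells gave 13.8% of the UMIs. The median cell was at 18.7 in the dividing CD8, 50.7 in the CD4 and 45.6 in the other-lineage cells. The 5 highest cells gave 16.1% of the CD4 and 40.7% of the other-lineage UMIs. Gene by gene against the CD4 cells, 1 of 19 interferon genes was higher, 6 were lower and 12 neither (median log2 ratio -0.17). Of all 720 genes in that comparison 22.1% were higher and 16.5% lower. Also among the highest ratios against dividing cells were Ctss (cathepsin S), Pydc4, Rasl11a and Fcgrt, with Tyrobp, Cd7 and the interferon genes given above. Ctss was at 1.06 against 0.23, with 37.6% of its UMIs in 1 cell.

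The promoters of 4 of the higher interferon genes are shown because they carry the GAAA repeat. The motif searched was GAAANNGAAA on both strands in the 250 bases before each RefSeq gene start (GRCm38.p6), and capitals mark its matches, overlapping ones joined. On the reverse strand it reads TTTCNNTTTC.
Isg15, chr4:156200850-156200921, minus strand: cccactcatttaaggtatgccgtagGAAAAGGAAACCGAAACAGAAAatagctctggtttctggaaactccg
Ifit1, chr19:34640760-34640838, plus strand: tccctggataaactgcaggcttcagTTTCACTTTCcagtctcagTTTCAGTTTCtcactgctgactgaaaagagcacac
Oas1a, chr5:120907526-120907570, minus strand: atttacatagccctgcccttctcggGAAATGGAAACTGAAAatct
Bst2, chr8:71537562-71537627, minus strand: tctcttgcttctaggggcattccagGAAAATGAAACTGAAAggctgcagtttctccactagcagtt
The motif was found in 6 of 9 matched promoters of the 13 higher interferon genes (66.7%), in 11 of 19 matched promoters of the 26 measured ones (57.9%), in 83 of 1433 matched deposited genes (5.79%) and in 936 of 27025 promoters in all (3.46%). A match describes the letters only, and the list was made of interferon genes to begin with.

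The levels were also graded by the number of Mki67 and Top2a UMIs, the values that chose the cells, and depth rose with that number: the classes below held medians of 8727.5, 9840, 11252 and 16610 UMIs per cell. In CD8 cells with 0, 1, 2 to 4 and 5 or more UMIs of the pair (158, 61, 141 and 641 cells), Ccl5 was at 31.5, 24.0, 11.4 and 9.67 UMIs per 10000. Il7r was at 1.70, 1.61, 0.70 and 0.41, so the 61 cells just outside the threshold lay within the interval of the 158 inside it. Cd7 ran 2.74, 1.64, 1.14 and 0.61, and Klrd1 4.59, 4.27, 2.86 and 1.91. Rtp4 was the exception in shape, at 0.75 and then 0.20, 0.23 and 0.14. Gzmb had no order, at 36.4, 43.0, 37.6 and 43.0. Among the cells with 8000 to under 12000 UMIs (75, 25, 54 and 88 cells), Cd7 was at 3.0, 2.24, 1.67 and 1.17 and Klrd1 at 5.17, 4.80, 3.42 and 2.60. In the same cells Il7r was at 1.73, 2.01, 1.13 and 0.54, and Ccl5, at 33.9, 34.6, 14.5 and 22.2, did not fall at each step. Rtp4 was at 1.01, 0.04, 0.43 and 0.19 there, the second value on 1 UMI in 25 cells. At the other threshold, 24 cells that met the 4 gene criteria but had 150 to under 200 genes were at 37.7 for Ccl5 and 34.6 for Gzma, and 52 cells with 200 to under 250 genes were at 50.8 and 60.3. In all, 33 such cells fell under 200 genes.

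**Figure D4:**
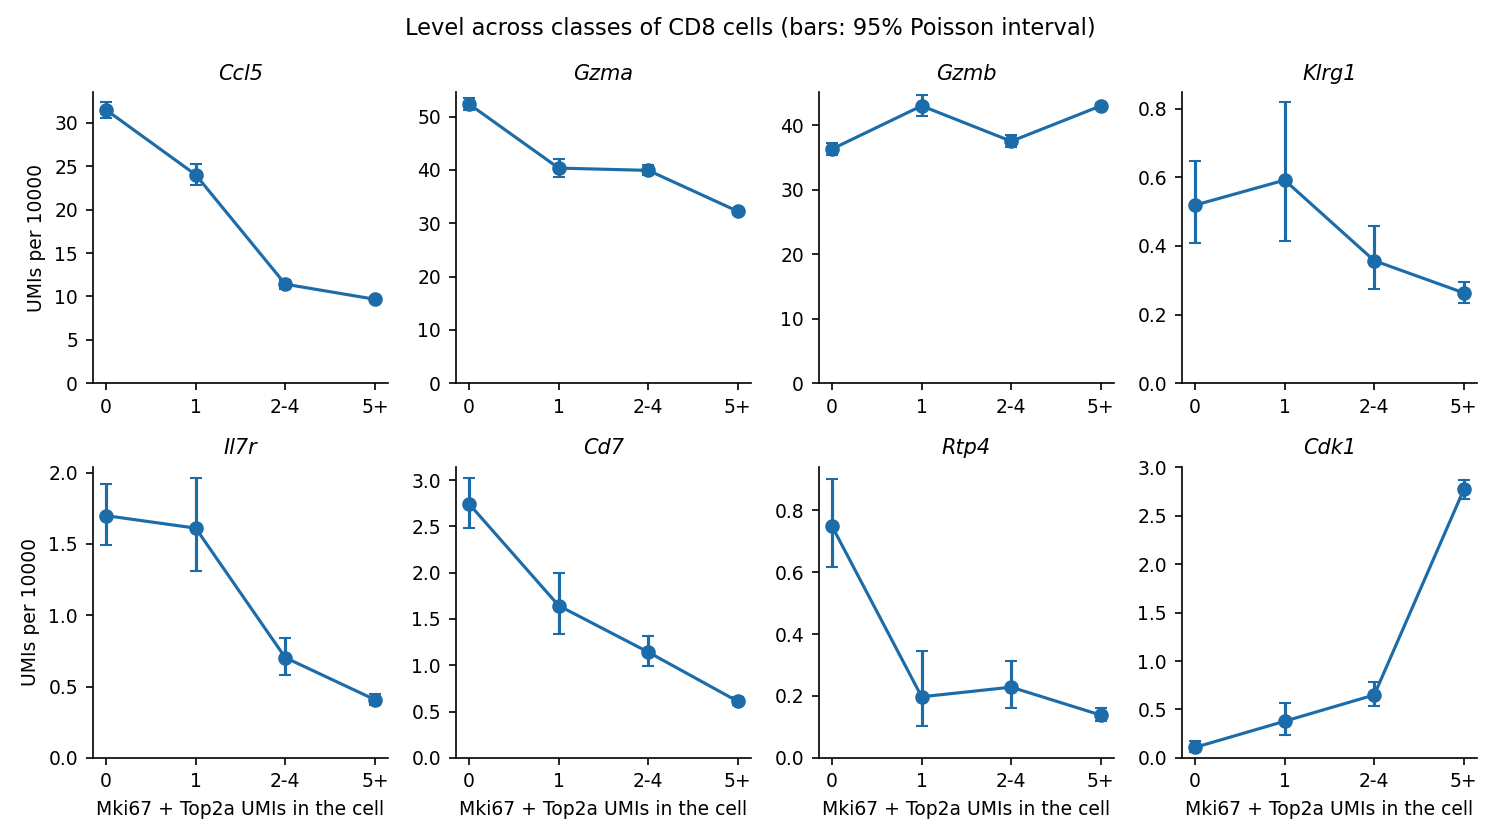
UMIs per 10000 of 8 genes in CD8 cells with 0, 1, 2 to 4 and 5 or more UMIs of Mki67 and Top2a together (158, 61, 141 and 641 cells); bars are exact 95% Poisson intervals. Over all depths Ccl5, Il7r and Cd7 fall step by step while median depth rises, Gzmb shows no order, and Cdk1 rises from 0.11 to 2.77.

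Within bins of similar depth some differences held and many shrank. Restricted to 8000 to 16000 UMIs, 68 of the 112 higher and 261 of the 365 lower calls were kept. In cells with 5000 to 8000 UMIs (52 non-dividing, 56 dividing), 8000 to 12000 (75 and 167) and 12000 to 16000 (13 and 233), Cd7 was 1.76, 2.01 and 2.65 times as high in the non-dividing cells, Il7r 1.64, 1.83 and 2.40 times, Ltb 1.56, 2.09 and 1.56 times, and Rtp4 1.39, 4.21 and 2.43 times. Slfn1 was 1.27, 2.98 and 3.0 times as high. Other interferon genes were less even: Isg15 was at 1.2, 2.80 and 1.16 times, Irf7 at 2.15, 1.78 and 0.67 times and Zbp1 at 1.74, 1.53 and 0.90 times the dividing level. Ccl5 was 1.64 and 1.57 times as high in the first bins and 0.55 times in the deepest, which holds only 13 non-dividing cells. Within the dividing cells alone Ccl5 fell with depth, from 30.2 to 21.6 and 14.5 UMIs per 10000. Klrd1 was at 1.40, 1.63 and 0.84. Ccr2 (0.99, 1.23 and 1.11), Klrk1 (1.40, 1.40 and 1.04), Ly6c2 (1.45, 1.38 and 1.08) and Gzmk (1.19, 1.16 and 1.25) stayed under 1.5-fold in each bin, and Itgax was at 1.18, 1.51 and 1.62. Gzma (1.17, 1.2 and 0.96) and Klrg1 (1.13, 0.83 and 1.97) did not keep a 1.5-fold difference in the bins with more than 13 non-dividing cells, and Il2ra (0.97, 1.2 and 0.46) was lower only in the thinly filled bin. Over 8000 to 16000 UMIs the log2 ratio of Ccl5 was 0.77 against 1.58 at all depths, that of Il7r 1.26 against 1.78, that of Klrg1 0.25 against 0.85 and that of Il2ra -0.04 against -0.81. With a minimum of 300 genes, which kept 45 non-dividing cells, Ccl5 was at 0.55.

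**Figure D5:**
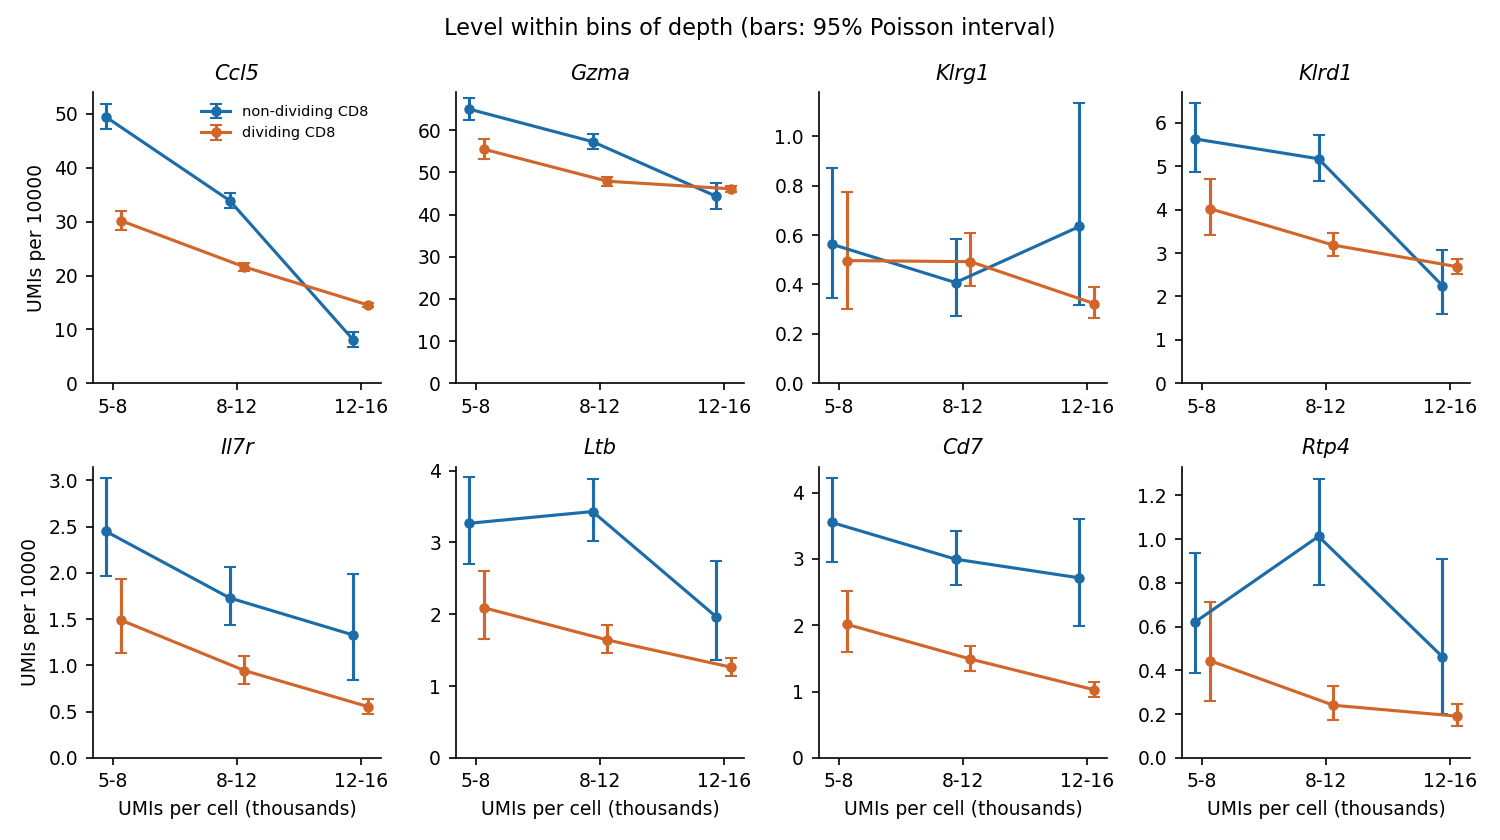
UMIs per 10000 of 8 genes in non-dividing and dividing CD8 cells within 3 bins of UMIs per cell; bars are exact 95% Poisson intervals, and the deepest bin holds 13 non-dividing cells. Il7r, Ltb, Cd7 and Rtp4 are higher in non-dividing cells in each bin. The intervals overlap for Rtp4 in the first and the deepest bin, for Ltb, Gzma and Klrd1 in the deepest bin and for Klrg1 in each bin.

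Set against the 83 non-dividing CD4 cells of the same library, at a median depth close to theirs, the killer genes separated by lineage and Il7r did not. Of 720 genes at the minimum share 22.1% were higher and 16.5% lower in the CD8 cells. Cell-cycle RNA also differed: the median summed S and G2/M level was 36.4 UMIs per 10000 against 26.6 in the CD4 cells. Of 32 G2 and M genes 22 were higher and 1 lower, and of 27 DNA replication genes 10 were higher and none lower. Of these, 8 of the 22 and 3 of the 10 reached the minimum share in the CD8 cells only. The part of this difference in the other genes was not tested. Gzma was at 52.3 against 5.04 UMIs per 10000 (10.4-fold, interval 9.37 to 11.5), Prf1 at 2.06 against 0.26, Gzmk at 4.85 against 0.74, Gzmb at 36.4 against 14.1, Nkg7 at 24.2 against 14.7 and Ccl5 at 31.5 against 9.45. All 8 NK-type genes at the minimum share were higher, 4 of them at that share in the CD8 cells only, such as Klrk1 (20.9-fold, 10.5 to 48.9), Klrd1 (5.05-fold), Cd160 (5.36-fold) and Klrc1 (2.50-fold). Klrg1 was barely past the threshold at 1.52-fold with an interval of 0.96 to 2.46. The integrin chain Itgax was 16.6-fold higher, Ly6c2 3.22-fold, Cd7 2.13-fold and the T-box factor gene Eomes 6.86-fold. Crtam had no UMI in the CD4 cells and was at least 7.17-fold higher, set against a floor of 3 counts over the group. Il7r was at 1.70 against 1.71 and Ltb at 2.95 against 4.11, both within 1.5-fold.

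Genes of helper and naive cells were among those lower than in the CD4 cells. Of all 720 genes at the minimum share 22.1% were higher in the CD8 cells and 16.5% lower. Cd40lg, the helper signal to B cells, had 85 UMIs in CD4 and none in CD8 cells (at least 55.3-fold lower, same floor), Nsg2 37 and none (at least 24.1-fold) and Cxcr5, the follicle-homing receptor, 25 and none (at least 16.3-fold). Tcf7 was at 0.06 against 1.49 UMIs per 10000, Id3 at 0.05 against 0.82, and Bcl2 at 0.16 against 0.79. Of 13 naive, memory and stem-like genes 3 were higher and 8 lower, but 5 of these 8 reached the minimum share in the CD4 cells only and 2 of the 3 in the CD8 cells only. Inhibitory genes were divided: Pdcd1 (2.37 against 1.25), Havcr2, Lag3 and Cd160 were among 6 of 13 that were higher, and Tox (0.26 against 0.65), Maf (0.20 against 1.0), Ctla4 (1.22 against 2.20), Cd200 and Ikzf2 among 6 that were lower. Of 14 NFAT and T-cell receptor response genes 8 were lower (4 at the minimum share in the CD4 cells only), including Tnfrsf4 (0.19 against 1.76), Nr4a1 (0.16 against 0.53) and Egr1 (2 against 13 UMIs), and 2 were higher, Nr4a2 (0.38 against 0.05) and Tnfrsf9 (1.0 against 0.53). Ccl4 was at 3.80 against 7.5, but 73.3% of its CD4 UMIs came from 1 cell and 39.7% of thinned CD8 cells had a UMI against 8.43%. Of the further genes with the most extreme ratios, Wdr95 (158 against 5 UMIs), Mt2 (62 against 4) and Fcer1g (94 against 4) were higher and Tbc1d4 (4 against 32) and Ifi204 (3 against 23) lower, Cd79b, Amica1 and Nrgn had 1 UMI each in the CD4 cells against 45, 35 and 32, and Tnfrsf25 and Izumo1r had 2 and 6 UMIs in the CD8 cells against 17 and 32. Many of the Fcer1g UMIs came from 1 CD8 cell, as given below. Fcer1g was still higher without the cells over 20 UMIs per 10000 of other lineages.

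Among themselves the non-dividing CD8 cells were mixed in their Klrg1 and Il7r values. Of 151 thinned cells 72 (47.7%) had neither, 53 (35.1%, 27.5% to 43.3%) had Il7r without Klrg1, 13 (8.61%) had Klrg1 without Il7r and 13 (8.61%) had both. Of 830 thinned dividing cells 601 had neither, 135 (16.3%, 13.8% to 19.0%) had Il7r alone, 69 (8.31%) Klrg1 alone and 25 (3.01%) both. At this depth a cell without a UMI may still express the gene. Granzymes were shared by nearly all: 137 of the 151 cells (90.7%) had both Gzma and Gzmb, none lacked Gzmb, and 115 (76.2%) had both Ccl5 and Gzma.

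The 33 cells with a Klrg1 UMI (median 9323 UMIs) were compared with the 125 without one (8676). Of 734 genes at the minimum share 14.4% were higher and 16.1% lower. Gzma was at 83.8 against 43.3 UMIs per 10000 (1.93-fold, interval 1.85 to 2.03) and Gzmk at 7.65 against 4.05. Ccl5 (42.3 against 28.4), Gzmb (47.3 against 33.2), Il7r (2.06 against 1.6), Ltb (2.75 against 3.01) and Cd7 (2.27 against 2.88) were within 1.5-fold. Of 21 type I interferon genes 14 were higher and none lower (median log2 ratio 0.73 against -0.01 over all 734). Of the 14, 5 reached the minimum share in the Klrg1 cells only, as did 41 of the 106 higher genes in all. Isg15 was at 1.72 against 0.80 and Slfn1 at 1.91 against 0.92. The sum over the 26 measured type I interferon genes was 44.9 UMIs per 10000 against 31.2, with 39.7% of it in 5 of the 33 cells. The highest ratios were for Ifit1, Tnfrsf4, Socs2, Xlr, Rln3, Ifit3, Usp18, Ifit3b, Ifit1bl1 and Tesc, each on 2 to 33 UMIs in the Klrg1 cells, and 54.5% of the Ifit1 and 70.0% of the Tnfrsf4 UMIs came from 1 cell. Lowest were Ifitm3 (2 against 89 UMIs), Tnfaip8l1, Adam8 (2 against 49), Tyrobp, Dbf4, Irak3, Fam46c, Slc43a3, Fcer1g (6 against 88) and Vax2. Summed RNA of other cell types was higher in the Klrg1-negative cells: myeloid genes were at 9.73 against 2.72 UMIs per 10000, MHC class II genes at 6.88 against 0.33 and B and plasma cell genes at 2.70 against 0.27. The median cells were close, at 2.74 against 2.46 for myeloid genes and at 0 in both groups for the MHC class II and B-cell lists. Leaving out cells over 20 UMIs per 10000 of these lists kept 121 of the 125 Klrg1-negative cells and all 33 others. Of the Tyrobp, Fcer1g and Ifitm3 UMIs of the Klrg1-negative cells 79.7%, 59.1% and 51.7% came from 1 cell. Without the cells over 20 UMIs per 10000 of those lists, 86 of the 118 lower calls were kept, and the log2 ratio of Tyrobp was 0.72 in place of -2.61, that of Fcer1g -0.60 in place of -2.07 and that of Ifitm3 -1.98 in place of -3.67. Havcr2 was lower at 0.57 against 0.99. With 33 cells, these are the least certain values of the comparisons.

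RNA of other cell types was present at low levels and was not equal between groups. The pancreatic acinar list, secreted digestive enzyme genes that T cells do not make, was at 2.39 UMIs per 10000 in non-dividing CD8, 1.44 in dividing CD8 and 2.71 in non-dividing CD4 cells, with a UMI of 26, 31 and 26 of its 31 measured genes. All 6 acinar genes at the minimum share, Prss2 among them, were called higher in non-dividing than in dividing cells, where 14.3% of all 782 genes were. The list's UMIs per cell were close (2.25, 2.43 and 2.48), and the part of such RNA in the other results was not tested. Gzma, Gzmk, Prf1, Klrg1, Il7r and Cd7 had no UMI in the 42 cells of other lineages, and Ccl5 had 7, Ltb 14, Isg15 179 and Rtp4 32. Myeloid genes were at 8.17 UMIs per 10000 in the non-dividing, 3.21 in the dividing CD8 and 1.90 in the CD4 cells, B and plasma cell genes at 2.16, 0.15 and 0.01, and MHC class II genes at 5.42, 0.48 and 0.37. The median non-dividing cell was at 2.63, 0 and 0 for these lists. The B-cell gene Vpreb3, 10 of 20 measured myeloid genes and 14 of 17 erythroid genes were at 0 in the non-dividing cells. Over 20 UMIs per 10000 of the B, myeloid or MHC class II lists were found in 4 non-dividing and 2 dividing CD8 cells and in no CD4 cell. Without them the log2 ratio of Tyrobp against dividing cells was 0.76 in place of 2.74 and that of Ctss 1.5 in place of 2.18, and Cd74, 74.5% of whose UMIs came from 1 cell, turned from 3.43 to -2.99 against CD4 cells. For Ccl5 it was 1.64 in place of 1.58 and for Il7r 1.84 in place of 1.78. Of 4 measured NK markers, Klra7 was at 0 in the non-dividing cells and the list was at 1.22 UMIs per 10000 against 0.59 in dividing cells, with a median of 0 in both. Cd163l1, the 1 measured gamma delta marker, had a UMI in 3 of the 158 cells, and of the 6 CD4 markers Cd40lg, like Cd4, was at 0.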

How the data were processed

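Libraries were 10x Genomics 5′ single-cell ones, per the labels. Cell Ranger 3.1.0, Seurat and the build mm10 are credited to the submitters' processing notes, which give no settings here. The tacrolimus values the authors deposited are the natural log of 1 plus UMIs scaled to 50000 per cell, for 2000 genes: on reversing this, 100% of values were whole UMIs (tolerance 0.001), as were 100% of cell totals, against 21.1% at a scale of 10000. The anti-IL-2 values the authors deposited are an integrated score (13.9% below 0), used only in checks. The tacrolimus table also holds 308 columns identical to anti-IL-2 cells, which were left out, and 4 barcodes were shared by the libraries. The 2000 genes held a median of 17.5% of a cell's UMIs.

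The planned summed UMIs were thus recovered from log values. Cells under 200 genes (213, 12.6%) were dropped. Doublets were not called. Cells passed into groups by the gene criteria alone, so no clusters were made. Intervals are exact Poisson for levels and ratios and exact Clopper-Pearson for shares; where a count is 0, the limit given is 3 counts of the total. Named genes were the 10 highest and 10 lowest of each comparison outside the cycle lists, the 4 markers and list members; some of these are not reported here. The members and lists were chosen with earlier results of these data known. The lists had 17 themes, plus 10 sets of cell-type markers. UMIs of paralogs and overlapping genes (Ifit, Oas, histone and Klr families) could have been split by the authors' counting. Coordinates are from GENCODE M21. The pipeline was tested on simulated counts. Python 3.11.15, numpy 2.4.6, scipy 1.17.1, pandas 2.3.3 and matplotlib 3.10.9 were used.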

Additional observations from a re-analysis of the deposited data

How the results depend on the processing

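No paired analysis was possible because there was 1 library per treatment. No cell was free of S and G2/M UMIs, so the stricter definition of non-dividing could not be fitted. Against dividing CD8 cells, 112 genes were higher and 365 lower. Median-of-ratios scaling gave 209 and 217, and no minimum share gave 534 higher. Against CD4 cells the counts were 159 and 119. No minimum share gave 309 and 197, and a 10% minimum 101 higher. For the Klrg1 split (106 and 118) a minimum of 300 genes, leaving 12 and 33 cells, gave 193 and 185, no minimum share 169 and 179, and a 10% minimum 63 and 65. The log2 ratio of Ccl5 between cells with 0 and with 5 or more Mki67 and Top2a UMIs was 1.70, 0.57 with 300 genes, 1.53 with cells weighted equally and 0.61 at 8000 to under 12000 UMIs (chosen after seeing the data). The cause was not tested.

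Some directions turned. Against dividing cells, Rgs16 was at 0.17 by thinned shares and 0.41 at 8000 to 16000 UMIs, and with 300 genes Klre1 was at -0.027, Entpd1 at -0.068 and Tnfrsf4 at 0.30. Against CD4 cells, shares gave Cd74 -1.35 and Ccl4 2.24, 300 genes gave the homing list -0.60, Amica1 -1.12 and Klrg1 -0.26, and leaving out cells with a defining marker of another lineage gave the homing list -0.075 and Cd74 -5.00. Leaving out cells over 20 UMIs per 10000 of other lineages, an alternative chosen after seeing the data, gave Cd74 -2.99. For the Klrg1 split, shares gave Tyrobp 0.25 and Irak3 0.42, 300 genes gave Rln3 -0.13, Ifit3 -0.13, Tnfaip8l1 0.045 and Fam46c 0.24, and the lineage exclusions gave Tyrobp 0.12 and 0.72.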
